A study of Homo sapiens with 6 samples.

Results

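The comparison described here sets 2 groups of cells against each other that were both labelled as an ELK3 knockdown of MDA-MB-231 (an established cell line from a triple-negative breast cancer) and were both transfected with plasmid. It uses 4 of the 6 libraries of the series, chosen by the names of their count columns. The KD+E group holds columns KD+E_1 and KD+E_2, and the KD group holds columns KD_1 and KD_2. Per the labels, both groups carried a stable retroviral shRNA against ELK3 and received 1 µg of plasmid with Lipofectamine 2000. RNA was taken 48 hours after transfection. The plasmid was pLenti-cMyc-DDK in one group and the same vector carrying ELK3 in the other. The remaining 2 libraries are control cells that were infected with a control retrovirus and have no recorded transfection, so they are given beside the results as levels only. The library kit was Lexogen QuantSeq, which yields reads near transcript ends rather than over whole transcripts. Nothing says whether replicates were separate cultures or whether the knockdown line was a single clone, and p-values then measure only the spread between these libraries, which may be technical.

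ELK3 belongs to the ETS family of transcription factors, which bind DNA at a GGAA core. With ELK1 and ELK4 it forms the ternary complex factors, which sit on DNA together with SRF and respond to RAS and MAP kinase signalling. ELK3 is known mainly as a repressor that turns into an activator when phosphorylated, and it has been studied in blood vessel growth and in the invasion of breast cancer cells. The title of the series names mitochondrial dynamics and killing by natural killer cells as its subject, so genes of both are followed below.

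The sample titles and the column names disagree. The 2 libraries with the columns KD+E carry titles for the empty vector, and the 2 with the columns KD carry titles for the ELK3 plasmid. ELK3 stood at 758.9 and 697.2 CPM (counts scaled to a common library size) in KD+E, at 20.4 and 22.6 CPM in KD, and at 128.6 and 123.9 CPM in the control cells. In raw counts these were 5166 and 3484, 128 and 213, and 615 and 576. ELK3 was therefore high where the column name says that ELK3 was added, 33.6-fold above KD by the fitted difference, and the sample titles say the reverse. All directions below follow the column names, as KD+E minus KD. The level of ELK3 helped to set this direction and is a description.

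Library totals ran from 4884483 to 9131214 counts, and replicates were alike, with correlations across genes on the log2 scale (Pearson's r) of 0.987 and 0.99 within the KD+E and KD groups against 0.901 to 0.907 between them. Of 29 genes typical of MDA-MB-231, the summed level was 1308 and 1267 CPM in KD+E and 1194 and 1147 CPM in KD, against 10123 and 9993 CPM in the control cells. The receptor kinase AXL, a defining marker, stood at 14.8 and 12 CPM, 10.5 and 11.6 CPM, and 624.4 and 587 CPM in the same order. Both plasmid groups were thus low in markers of the line named on their labels. Of 23 tested genes typical of the embryonic kidney line HEK293, the sums were 873.3 and 860.4 CPM in KD+E, 1584 and 1581 CPM in KD, and 323.1 and 308.8 CPM in the control cells. Genes of hepatocytes, among them ALB (albumin), were present in every library, with sums of 17463 and 16259 CPM in KD+E, 13137 and 13791 CPM in KD, and 16159 and 16631 CPM in the control cells. Of these 26 genes, 25 (96.15%) were called higher in KD+E, beside 29.6% over all genes tested. Their log2 differences ran from 0.19 to 0.48 over all 26. The part of these differences in the results below was not tested. In bulk RNA, fewer cells of a type and less RNA per cell cannot be told apart.

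Genes with an ETS motif in the promoter were more often called lower than higher in KD+E, and the stretches of 8 such promoters are shown because the share of genes called lower was largest for this motif among those searched. All 8 were picked from genes called lower, and none of the 138 genes with the motif that were called higher is shown. Each is the last 100 bases before the gene start in RefSeq's table for GRCh38.p14, on the gene's strand from 5′ to 3′. Capitals mark CCGGAAGT or its reverse complement ACTTCCGG.
SLC25A46, chr5:110738907-110739006, plus strand: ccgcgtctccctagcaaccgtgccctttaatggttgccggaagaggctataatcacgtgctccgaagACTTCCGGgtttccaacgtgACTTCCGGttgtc
MIEF1, chr22:39502190-39502289, plus strand: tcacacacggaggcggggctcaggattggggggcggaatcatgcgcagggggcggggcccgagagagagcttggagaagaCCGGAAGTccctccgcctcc
FIS1, chr7:101245082-101245181, minus strand: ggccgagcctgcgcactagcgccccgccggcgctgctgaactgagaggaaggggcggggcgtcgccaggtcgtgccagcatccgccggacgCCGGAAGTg
GATAD1, chr7:92447382-92447481, plus strand: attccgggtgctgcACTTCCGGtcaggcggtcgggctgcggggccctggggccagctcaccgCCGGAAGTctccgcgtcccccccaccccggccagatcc
VPS25, chr17:42773349-42773448, plus strand: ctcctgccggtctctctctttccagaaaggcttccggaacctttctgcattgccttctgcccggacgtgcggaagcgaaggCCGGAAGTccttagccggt
MTERF4, chr2:241102288-241102387, minus strand: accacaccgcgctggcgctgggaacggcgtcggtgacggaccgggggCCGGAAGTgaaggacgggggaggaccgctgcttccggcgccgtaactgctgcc
MRPL27, chr17:50373185-50373284, minus strand: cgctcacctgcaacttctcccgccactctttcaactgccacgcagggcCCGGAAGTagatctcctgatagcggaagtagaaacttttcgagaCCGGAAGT
PSMC2, chr7:103347543-103347642, plus strand: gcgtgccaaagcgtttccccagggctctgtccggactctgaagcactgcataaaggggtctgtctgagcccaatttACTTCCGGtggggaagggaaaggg
SLC25A46, MIEF1 and FIS1 act in mitochondrial fission, MTERF4 and MRPL27 in mitochondrial translation, VPS25 in sorting of membrane proteins, PSMC2 in the proteasome, and GATAD1 is a zinc finger protein of chromatin. In SLC25A46 the copies begin 33 and 13 bases before the start, and in GATAD1 86 and 38 bases before it. The count tables were made on hg19, and promoters were matched to genes by symbol only.

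Windows of 300 bases, 250 before and 50 from the start, were found for 11834 of the 15386 genes tested. The motif, searched on both strands, was in 958 of them (8.09%), and in 4.43% of all 27305 promoters of the table. A gene was called where the adjusted p of edgeR's quasi-likelihood test (Benjamini-Hochberg over all genes) was below 0.05. Over all genes tested, 30.0% were called lower and 29.6% higher in KD+E. Of the 958 genes with the motif, 586 (61.2%) were lower and 138 (14.4%) higher. Of the 10876 genes without it, 28.5% were lower and 31% higher. The median log2 difference was -0.57 with the motif and 0.04 without it. A match is a description of sequence and does not show that a factor was bound.

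The difference was read by the number of copies and by their place. Of 98 genes with 2 or more copies, 78 were lower and 3 higher, and 55 were lower by at least 2-fold, with none higher by as much. Their median log2 difference was -1.09, against -0.54 in the 860 genes with 1 copy. The 9 of them with 3 or more copies were closer to those with 1, with 5 lower and a median of -0.53. Among genes with a single copy, 65.7% of the 385 with the copy starting within 50 bases before the gene start were lower, and 47.6% of the 84 with it more than 150 bases before. Over the 98 genes the median level was 20.9 and 20.6 CPM in KD+E, 43.2 and 42.8 CPM in KD, and 45.6 and 43.5 CPM in the control cells. By these medians the control cells were close to KD. Of the 55 lower by at least 2-fold, the control mean lay between the groups in 25, above both in 29 and below both in 1. Over the genes without the motif the same medians ran from 21.7 to 23.2 CPM in all 6 libraries.

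Turned around, the motif was in 22% of the promoters of genes lower by at least 2-fold, in 24.5% of those lower by at least 4-fold, in 5.04% of those not called, in 2.78% of those higher by at least 2-fold, and in 1.53% of those higher by at least 4-fold. Motif-bearing promoters are rich in CpG, and the share lower was read within bands of CpG. With 10 to 19 CpG in the window, 53.9% of 167 genes with the motif were lower against 25.7% of 1853 without it. With 30 or more, the shares were 63.9% of 332 and 33.6% of 4029. It was read by abundance too. At a mean from 20 to 100 CPM, 65.8% of 465 genes with the motif were lower and 36.1% of 4226 without it. Below 5 CPM, the shares were 26.9% of 67 and 10.3% of 1995.

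Lower shares were found for other motifs. The share of genes called lower was 28.6% for the CCAAT box (CCAAT), 22.6% for the TATA box (TATAAA), 24.5% for the NRF1 motif, 29.8% for the YY1 motif (AAGATGGC), 33.9% for the SP1 motif (GGGCGG) and 38.6% for the E2F motif. These motifs can overlap the ETS motif or each other in a window. Changing the GGAA core to GCAA (CCGCAAGT) left 43 promoters, of which 12 were lower and 13 higher. Changing it to GGTA (CCGGTAGT) left 41, of which 14 were lower and 7 higher. With 6 letters (GGAAGT), 44.5% of 3148 genes were lower, and with 9 letters (ACCGGAAGT), 60.1% of 228. The genes of the cytosolic ribosome went another way: of 9 with the motif in their promoter, 4 were higher and 1 was lower.

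**Figure D1:**
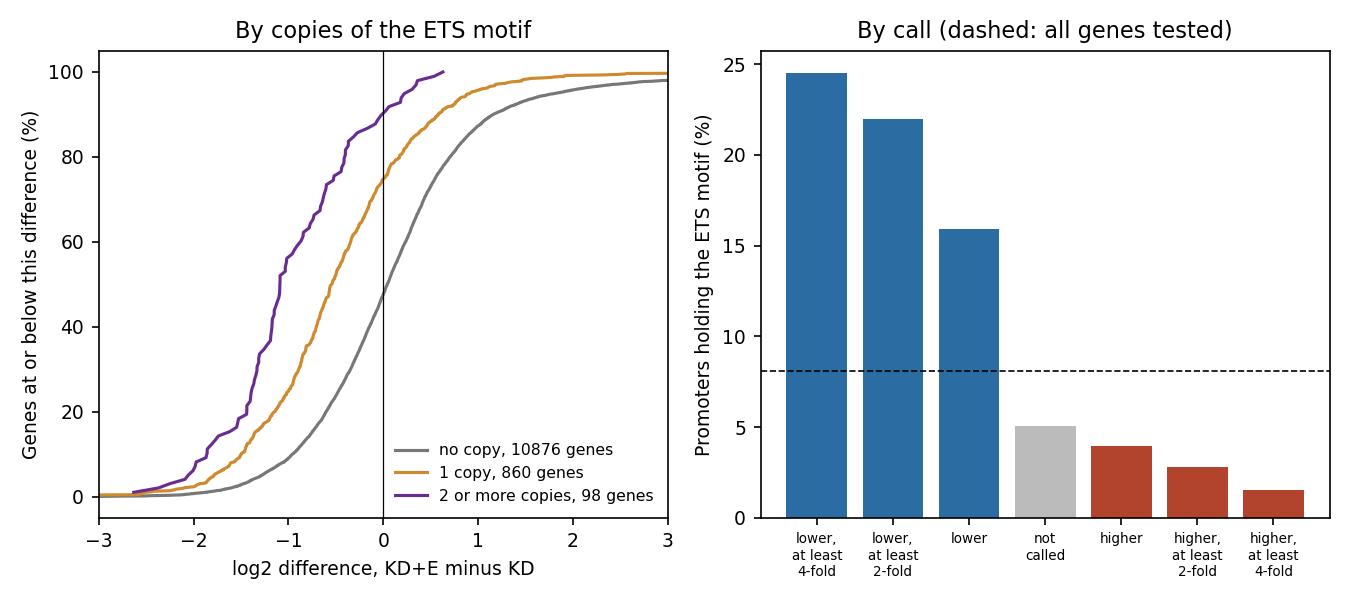
Left, the share of genes (y axis, percent) at or below each log2 difference of KD+E minus KD (x axis) for promoters with 0, 1, or 2 or more copies of the ETS motif; right, the share of promoters that hold the motif by call, with the share over all genes tested as a dashed line at 8.09%. The curve for 2 or more copies lies to the left, with a median of -1.09, and the bars fall from 24.5% for genes lower by at least 4-fold to 1.53% for genes higher by at least 4-fold.

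Across all 15386 genes, 4559 were called higher and 4615 lower in KD+E, and the median log2 difference was 0.02. With a size of at least 2-fold added, 1901 (12.4%) were higher and 1593 (10.4%) lower. Large differences were mostly increases: 331 genes rose by 8-fold or more and 9 fell by as much. The count of 9 became 32 without KD+E replicate 1 and 18 without KD+E replicate 2, and the 331 became 655 with no filter on low counts and 100 with a filter of 10 CPM. Of the 331, 268 had a mean under 1 CPM in KD, and 247 were under 1 CPM in the control cells. Their median level was 5.47 CPM in KD+E, 0.318 CPM in KD and 0.32 CPM in control cells. Such genes passed the filter on low counts through the KD+E libraries, and fitted folds of genes with few counts rest on the prior count of the fit. Among genes with a mean of at least 100 CPM, 130 of 2155 rose and 117 fell by 2-fold or more.

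**Figure D2:**
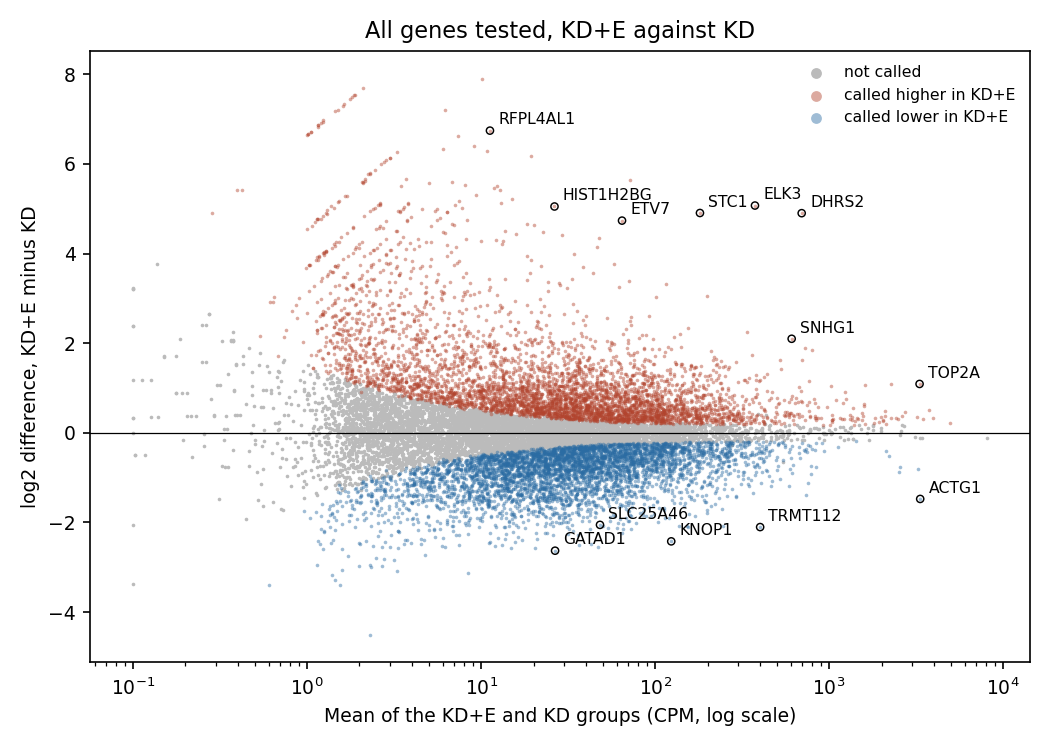
Each point is one of 15386 genes: the x axis is the mean of the group means in CPM on a log scale, with values under 0.1 drawn at 0.1, and the y axis is the log2 difference of KD+E minus KD. Points above 4 lie mostly at low CPM, with ELK3, DHRS2 and STC1 as labelled exceptions.

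The genes with the largest decreases above 20 CPM in KD were of many functions. GATAD1 stood at 6.02 and 9 CPM in KD+E and at 49 and 42.4 CPM in KD, a log2 difference of -2.63 ± 0.18 (SE of the fit, adjusted p = 2.98e-14). VPS25, a subunit of the ESCRT-II complex, stood at 15.7 and 11.2 CPM against 81.6 and 78.9 CPM, or 5.83-fold lower. MTERF4, a partner of the mitochondrial ribosome's methylation enzyme, stood at 4.55 and 4 CPM against 24.3 and 26.9 CPM. In each, as the naming rule requires, the replicate pairs did not overlap. The control cells lay between them, at 33.9 and 27.3, 64.2 and 57.6, and 13.2 and 14.8 CPM. TRO (trophinin) differed in that respect. It stood at 11.6 and 10.2 CPM in KD+E and 62.6 and 61.6 CPM in KD, but at 3.14 and 6.67 CPM in the control cells. PIGM, which adds a mannose to GPI anchors, stood at 13.7 and 12.2 CPM against 74.4 and 70.4 CPM. KNOP1, a protein of the nucleolus, stood at 43.2 and 34 CPM against 203.7 and 214.1 CPM. KNOP1 has a copy of the ETS motif 12 bases after its start, and the window of PIGM has none.

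Large decreases in absolute level included those of several abundant genes. ACTG1, the cytoplasmic gamma actin, stood at 1852 and 1678 CPM in KD+E, at 5014 and 4803 CPM in KD, and at 3496 and 3928 CPM in the control cells (log2 difference -1.47 ± 0.08, adjusted p = 1.99e-16). TRMT112, a cofactor of several RNA and protein methyltransferases, stood at 158.2 and 144.5 CPM against 643.1 and 659.5 CPM, or 4.3-fold lower. YWHAB, a 14-3-3 protein, stood at 411 and 403.2 CPM against 1039 and 1097 CPM. The importin gene KPNB1 stood at 489.2 and 466.4 CPM against 1012 and 1071 CPM. In the control cells TRMT112 stood at 978.9 and 1039 CPM and YWHAB at 1621 and 1735 CPM, above KD. KPNB1 stood there at 944.8 and 1124 CPM. Of all 1593 genes lower by at least 2-fold, the control mean lay between the groups in 41.7%, above both in 38.6% and below both in 19.6%. The rule that named these 4 genes required that their KD+E and KD libraries do not overlap. Over all 15386 genes, the libraries did not overlap for 6165 higher and 6053 lower in KD+E.

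Genes of mitochondrial fission, the process that divides mitochondria, were mostly lower: 15 of 17 were called lower and 2 higher, with a median log2 difference of -0.84. The shares over all genes were 30.0% lower and 29.6% higher. DNM1L, the dynamin that constricts the organelle, stood at 53.3 and 55.8 CPM in KD+E and at 92.4 and 102.2 CPM in KD (log2 difference -0.84 ± 0.1, adjusted p = 9.82e-09), with 66.7 and 67.3 CPM in the control cells. Its receptors on the outer membrane were all lower, though by unequal amounts. MIEF1 stood at 53.9 and 54.2 CPM against 165.9 and 177.4 CPM, a log2 difference of -1.67 ± 0.1. FIS1 stood at 23.8 and 30 CPM against 47.7 and 44 CPM (-0.78 ± 0.13). MFF differed least, at 51.4 and 46 CPM against 60 and 60 CPM (-0.29 ± 0.11, adjusted p = 0.0205), and MIEF2 by -0.51 ± 0.18 (adjusted p = 0.0126). The call of MFF was lost in DESeq2, with a filter of 10 CPM, and without KD+E replicate 2 or either KD library, and that of MIEF2 in DESeq2 and without replicate 1 of either group.

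SLC25A46, an outer membrane carrier protein that acts in fission and lipid transfer, had the largest difference of the list. It stood at 18.5 and 18.6 CPM in KD+E, at 90 and 65.7 CPM in KD and at 55.2 and 59.6 CPM in the control cells, 4.15-fold lower. MUL1, a ubiquitin ligase that acts on MFN2, stood at 7.93 and 6.6 CPM against 27.2 and 25.8 CPM. PGAM5, the phosphatase of the outer membrane, stood at 23.9 and 23 CPM against 55.3 and 56.9 CPM. All of these had control cells between KD+E and KD. The exceptions of the list were DNM2, the general dynamin of membrane scission, at 123.5 and 147.7 CPM in KD+E against 95.1 and 80.2 CPM in KD, and MTFR1, which passed with a log2 difference of 0.39 ± 0.14. Of the 15 members with a promoter window, 3 hold the ETS motif and all 3 were lower; of the 12 others, 11 were lower.

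**Figure D3:**
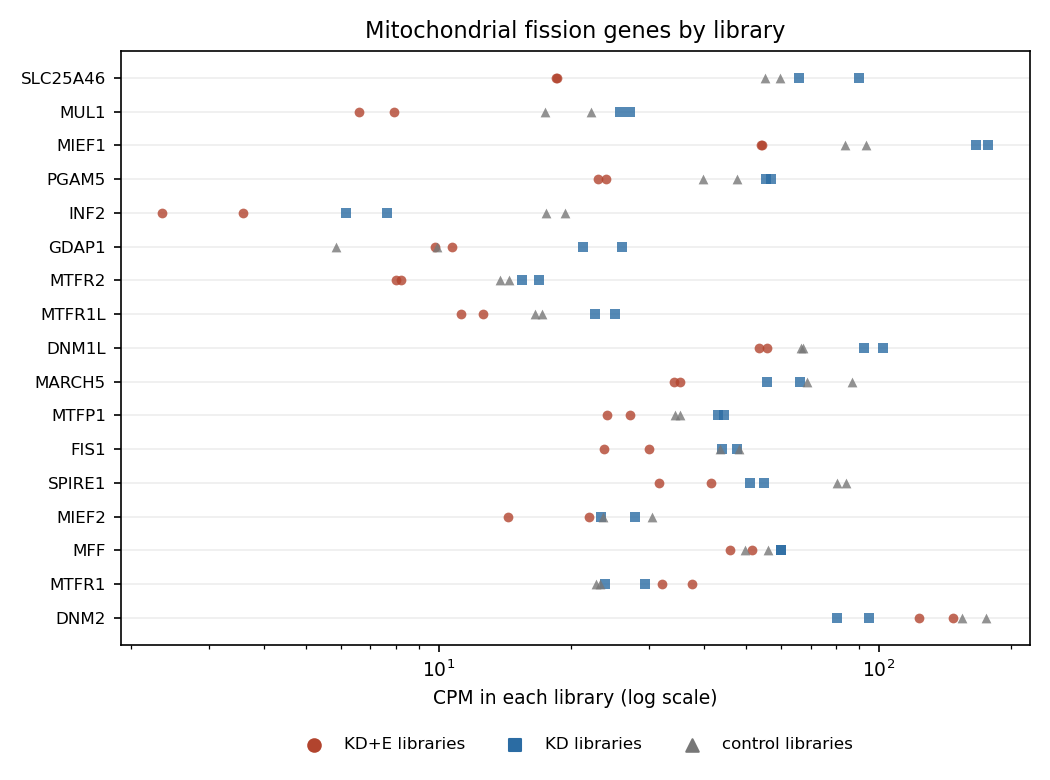
CPM of the 17 fission genes (x axis, log scale) in each library, with circles for KD+E, squares for KD and triangles for control cells, ordered by log2 difference. The circles lie left of the squares for every gene except MTFR1 and DNM2, with SLC25A46 at 18.5 and 18.6 CPM against 90 and 65.7 CPM.

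Genes of mitochondrial fusion and of the cristae did not move one way: of 21, 8 were higher and 7 lower, with a median of -0.03. These shares, 38.1% and 33.33%, stand beside 29.6% higher and 30.0% lower over all genes. The fusion GTPases differed little. MFN1 was lower (17 and 19.2 CPM against 27.2 and 25.3 CPM), MFN2 was higher by 0.24 ± 0.09 (adjusted p = 0.0204; the call was lost in DESeq2, with no filter, and without either KD+E library or KD replicate 2), and OPA1, which joins the inner membrane, did not pass, with a log2 difference of -0.13 ± 0.11. The proteases that process OPA1 were both lower, YME1L1 by -1.34 ± 0.1 and OMA1 by -0.91 ± 0.16. PLD6, a phospholipase of the outer membrane, was higher, at 54.9 and 55.4 CPM against 14 and 12 CPM. Fission and fusion genes thus gave different counts, and the difference between the lists was not tested.

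Genes that copy, transcribe and translate mitochondrial DNA were lower more often than higher. Of 23 genes of mitochondrial DNA maintenance and its regulation, 11 were lower (47.83%) and 4 higher (17.39%). The shares over all genes were 30.0% lower and 29.6% higher. TFAM, which packages mitochondrial DNA, stood at 92 and 96.4 CPM against 170.6 and 187.2 CPM, and the nuclear receptor ESRRA at 91.4 and 96.4 CPM against 385.8 and 406.7 CPM. The coactivator PPARGC1A went the other way, at 49.5 and 42.6 CPM against 23.2 and 23.6 CPM. Of 77 mitochondrial ribosomal proteins, 40 were lower (51.95%) and 23 higher (29.87%), with a median of -0.29. Their share higher was thus near that over all genes. MRPL16 stood at 23.2 and 21.8 CPM against 105 and 106.6 CPM, and MRPL27 at 24.5 and 24.2 CPM against 90.3 and 104.8 CPM. MRPL18, the carrier of 5S rRNA, was the opposite extreme, at 587.9 and 530.3 CPM against 123.4 and 112.8 CPM. Of the 11 members with the ETS motif, 9 were lower, and of the 58 without it 27 were lower.

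Genes of the respiratory chain were called in both directions. The shares for complex I (35.1% higher, 24.3% lower) were near those over all genes (29.6% higher, 30.0% lower). Of 37 complex I genes 13 were higher and 9 lower. Of 41 genes of complexes II to V 19 were higher (46.34%) and 12 lower (29.27%). In complexes II to V, 6 of the 7 members with the ETS motif were lower and none higher, and of 25 without it 5 were lower and 13 higher. NDUFS3, a core subunit of complex I, stood at 92 and 84.4 CPM against 240.9 and 255.9 CPM. NDUFV3, an accessory subunit, stood at 300.3 and 287.1 CPM against 120.9 and 119.3 CPM. Of the 41 proteasome genes 17 were lower (41.46%) and 10 higher (24.39%), with PSMC2 lowest (49.1 and 50 CPM against 161.6 and 157.8 CPM). Of 23 cytosolic aminoacyl-tRNA synthetases and partners, 13 were lower (56.52%) and 3 higher (13.04%). RARS, for arginine, stood at 57.1 and 59.8 CPM against 249.3 and 241.7 CPM, while AARS, for alanine, was higher by 1.47 ± 0.09.

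**Figure D4:**
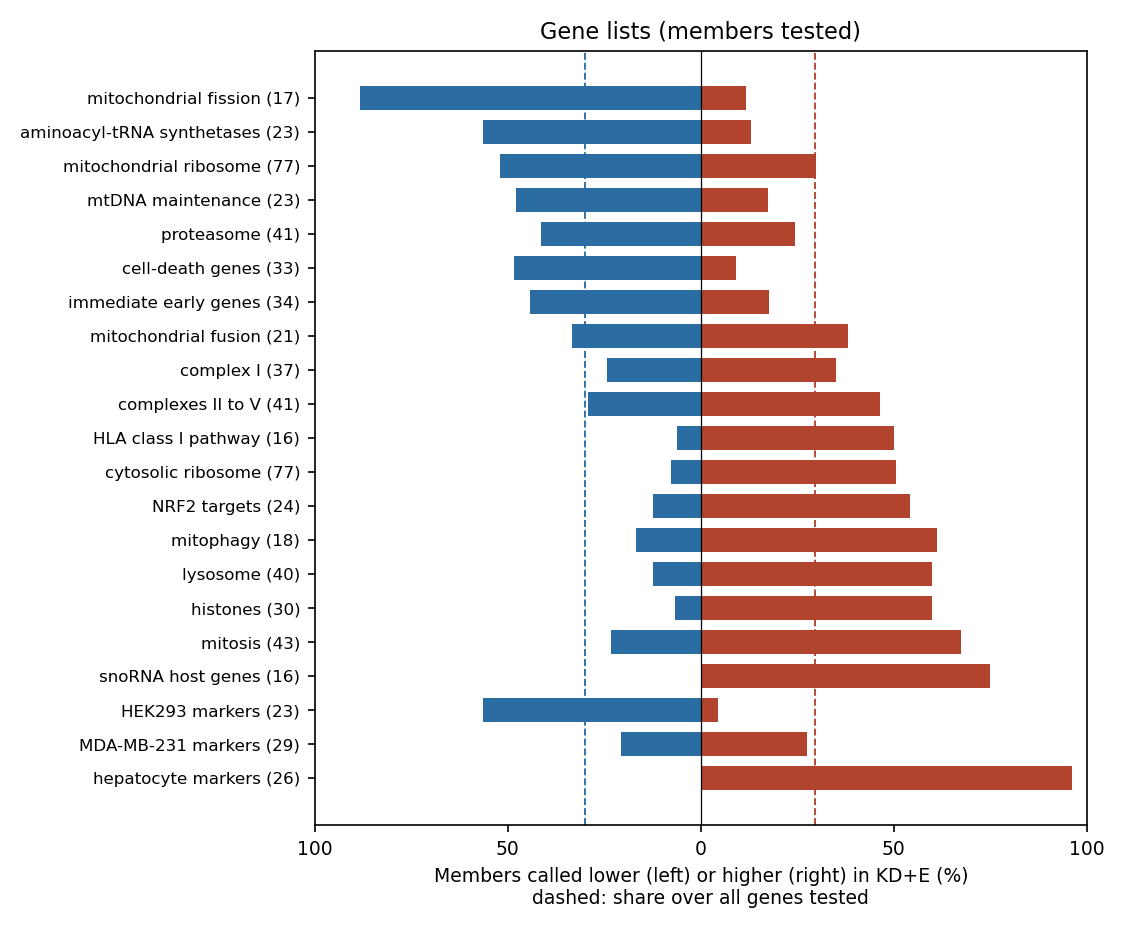
For each gene list drawn (number of members tested in brackets), bars give the percent of members called lower (left) and higher (right) in KD+E, and dashed lines give the shares over all genes tested, 30.0% and 29.6%. The lists drawn are a selection from 49. Among them, fission genes reach furthest left with 15 of 17, and the hepatocyte markers furthest right with 25 of 26.

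Among the genes that were higher, several rose from low to high levels. DHRS2, a mitochondrial and nuclear reductase of carbonyl compounds, stood at 1265 and 1428 CPM in KD+E, at 39.1 and 50 CPM in KD and at 32 and 28.4 CPM in the control cells, 29.9-fold higher (adjusted p = 1.2e-27). STC1, the secreted glycoprotein stanniocalcin, stood at 342.7 and 357.8 CPM against 11.8 and 11.6 CPM, with 90.5 and 98.9 CPM in the control cells. ETV7, an ETS-family repressor, stood at 120.6 and 128.3 CPM against 4.45 and 4.78 CPM. The gaps between the groups were many times the spread of the replicates. DHRS2, STC1 and ETV7 were named for large differences, by a rule that requires groups that do not overlap. The inducible chaperone HSPA1A stood at 212.7 and 207.3 CPM against 21 and 20.8 CPM, while DNAJB1, another heat-shock gene, was lower by -1.24 ± 0.1. HSPA5, the chaperone of the endoplasmic reticulum, stood at 2100 and 2232 CPM against 998.8 and 1083 CPM.

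**Figure D5:**
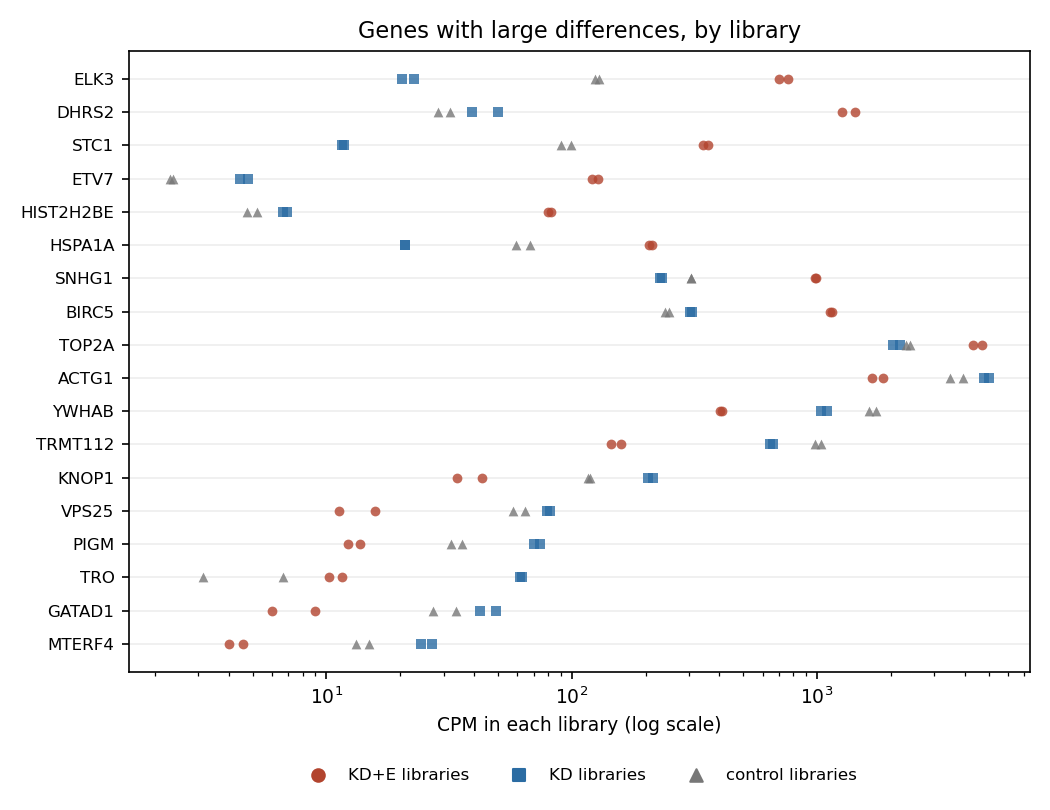
CPM of 18 genes (x axis, log scale) in each library, with circles for KD+E, squares for KD and triangles for control cells. The pairs of circles and squares do not overlap for any gene shown, from ELK3 at 758.9 and 697.2 CPM against 20.4 and 22.6 CPM to MTERF4 at 4.55 and 4 CPM against 24.3 and 26.9 CPM. Most of these genes were named by a rule that requires this. Over all 15386 genes, the pairs do not overlap for 6165 higher and 6053 lower in KD+E.

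Genes that are normally silent outside the early embryo were among the most increased. DUX4 is the transcription factor of the cleavage stage, and its known targets include RFPL4A and TRIM43. Of 43 listed targets in the files 13 passed the filter on low counts, several of them through the KD+E libraries, so their count is no measure of the list. RFPL4A stood at 44.1 and 32 CPM in KD+E and at 0.477 and 0.532 CPM in KD. RFPL4AL1 had 185 and 87 counts in KD+E against 1 and 2 in KD, a ratio of 121 (exact 95% counting interval 40.8 to 588). TRIM43 had 212 counts against 3 (ratio 93.9, interval 31.7 to 459). These families have near-identical copies, and reads can be split between them. ZSCAN4 and LEUTX, classic targets of DUX4, had 4 counts and 1 count over all 6 libraries and were not tested.

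Some histone genes of the replication type were also higher, and 2 promoters of increased genes are shown with the motif they hold in capitals, the DUX4 motif in RFPL4AL1 and the octamer (ATTTGCAT) in HIST2H2BE, again as the last 100 bases before the start in GRCh38.p14.
RFPL4AL1, chr19:55769018-55769117, plus strand: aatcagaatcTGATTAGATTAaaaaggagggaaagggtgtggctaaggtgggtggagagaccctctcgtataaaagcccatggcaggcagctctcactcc
HIST2H2BE, chr1:149886683-149886782, minus strand: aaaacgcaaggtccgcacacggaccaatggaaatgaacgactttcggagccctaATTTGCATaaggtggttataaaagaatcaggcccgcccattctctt
The DUX4 motif is in 10 of the 27305 promoters (0.0366%), and of the 9 windows of tested targets it was in 1. Histone messages mostly lack a poly(A) tail, and a kit that primes on poly(A) reads only the tailed part. Of 62 listed histone genes 30 passed the filter on low counts, some through the KD+E libraries, and of these 18 were called higher, 2 lower and 10 neither, so here too the count is no measure of the list. HIST2H2BE stood at 80.1 and 82 CPM in KD+E, at 6.68 and 6.91 CPM in KD and at 5.23 and 4.73 CPM in the control cells. HIST1H2BG stood at 54.1 and 48.4 CPM against 1.75 and 1.38 CPM. HIST1H4C, the histone gene with the most counts, did not pass, at 1995 and 2016 CPM against 2040 and 1885 CPM. Copies of the same histone share sequence, so values of single histone genes are uncertain. The octamer was in 38.5% of 26 histone promoters and in 1.8% of all promoters.

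Genes of mitosis were mostly higher in KD+E: 29 of 43 were higher (67.44%) and 10 lower (23.26%), with a median of 0.53. The shares over all genes were 29.6% higher and 30.0% lower. BIRC5 (survivin), of the chromosomal passenger complex, stood at 1124 and 1154 CPM against 308.8 and 304.2 CPM, with 249.1 and 240 CPM in the control cells (log2 difference 1.89 ± 0.08, adjusted p = 1.89e-19). Its partner CDCA8 stood at 331.4 and 317.8 CPM against 104 and 105.8 CPM, and the kinase AURKA at 555.3 and 548.9 CPM against 165.9 and 167.3 CPM. TOP2A, the topoisomerase that untangles chromosomes, stood at 4304 and 4704 CPM against 2049 and 2180 CPM. The CHR element (TTTGAA), known from promoters of G2 and M phase, was in 66.7% of 36 windows of the list, in 10.4% of all tested genes' windows and in 15.4% of all promoters. Of 44 genes of DNA replication, 17 were lower (11 by DESeq2) and 8 higher, or 38.64% and 18.18%. MCM3, of the replicative helicase, stood at 104.6 and 89.5 CPM against 216.1 and 213.3 CPM, while the licensing factor CDC6 stood at 310.4 and 316.8 CPM against 113.4 and 121.8 CPM. The retinoblastoma gene RB1 was lower by -1.42 ± 0.13 and its relative RBL1 higher by 1.08 ± 0.11.

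Host genes of small nucleolar RNAs, whose spliced transcripts belong to the 5′ oligopyrimidine class, were mostly higher. Of 16 tested, 12 were higher (75%) and none lower, with a median of 0.86. The shares over all genes were 29.6% higher and 30.0% lower. SNHG1 stood at 984.9 and 990.5 CPM in KD+E, at 227.9 and 233.2 CPM in KD and at 305.1 and 306.6 CPM in the control cells, 4.28-fold higher (adjusted p = 1.65e-20). SNHG12 stood at 229.5 and 190.5 CPM against 46 and 48.8 CPM, and ZFAS1 at 421.3 and 364 CPM against 143.9 and 141 CPM. The proteins of the cytosolic ribosome, of the same class, were higher by less: 39 of 77 were higher and 6 lower, with a median of 0.18; the 6 became 2 or 3 without KD+E replicate 2 or either KD library, and 2 with a filter of 10 CPM. In the main fit, 50.65% of the 77 were higher and 7.79% lower. The hepatocyte markers, with a median of 0.33, differed by more than this list.

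Lysosomal genes were higher in 24 of 40 (60%) and lower in 5 (12.5%), beside 29.6% and 30.0% over all genes. Their median was 0.39, beside 0.33 for the hepatocyte markers. The 5 became 3 without KD replicate 2. ATP6V1B2, of the proton pump, stood at 328.9 and 349.8 CPM against 99.1 and 118 CPM, and PSAP (prosaposin) at 893.4 and 904.3 CPM against 427.9 and 451.9 CPM. Of 18 genes of mitophagy, the removal of mitochondria by autophagy, 11 were higher and 3 lower, which became 7 and 1 in DESeq2 and without KD+E replicate 2. In the main fit the mitophagy shares were 61.11% higher and 16.67% lower. PINK1, the kinase that marks damaged mitochondria, stood at 132.8 and 127.5 CPM against 89.4 and 73.9 CPM. CALCOCO2, an autophagy receptor, stood at 238 and 226.3 CPM against 86 and 87.5 CPM. GABARAPL2, of the ATG8 family, was the largest decrease, at 42.8 and 43 CPM against 106.9 and 114.4 CPM, and its promoter holds the ETS motif. Of 24 NRF2 targets 13 were higher (54.17%) and 3 lower (12.5%). The cystine transporter SLC7A11 stood at 144.7 and 160.5 CPM against 46 and 46.8 CPM.

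As a group, ligands seen by natural killer cells were called no more often than all genes. Of 16 tested ligands of activating receptors, 4 were higher and 4 lower (25% each, beside 29.6% and 30.0% over all genes); without KD+E replicate 2 the number higher was 2, and in DESeq2 the number lower was 2. MICA, a ligand of NKG2D, stood at 5.29 and 3.8 CPM in KD+E and at 10.7 and 10.8 CPM in KD (log2 difference -1.21 ± 0.23, adjusted p = 3.13e-05), against 54.2 and 52 CPM in the control cells. Its relative MICB did not pass, at 27.5 and 31.8 CPM against 31.6 and 35.8 CPM. ULBP2, another NKG2D ligand, was higher by 0.9 ± 0.34 (adjusted p = 0.0228), with the call lost in DESeq2 and without either KD+E library or KD replicate 1. The DNAM-1 ligand PVRL2 was lower, at 25.6 and 25.8 CPM against 45.8 and 56.4 CPM, and PVR, its partner, did not pass. By at least 2-fold, 1 activating ligand was called higher and 2 were called lower. Log2 differences over these 16 ligands ran from -1.21 to 3.44. Genes of HLA class I presentation, which inhibits these cells, were higher in 8 of 16 and lower in 1, with a median of 0.29, beside 0.33 for the hepatocyte markers. With symbols on several lines left out, 2 were higher. B2M stood at 953.9 and 943.1 CPM against 581.4 and 595.9 CPM, with 1371 and 1375 CPM in the control cells. HLA-E was higher by 0.52 ± 0.09, and reads of HLA genes can be shared between them. Of 33 genes of cell death, 16 were lower and 3 higher. MCL1, of the BCL2 family, stood at 93.28 and 94.45 CPM against 242.8 and 218.6 CPM. The TRAIL receptor gene TNFRSF10A stood at 1.47 and 0.8 CPM against 5.72 and 6.7 CPM. Its KD+E values rest on few counts, as 3 counts equal 0.45 and 0.614 CPM in those libraries.

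Markers of lymphocytes and NK cells were present in every library, with sums from 371.6 to 463.3 CPM. Of 18 tested, 7 (38.9%) were higher in KD+E, beside 29.6% over all genes. The count of 7 was 2 in DESeq2, 3 with no filter, and 1 to 4 without KD+E replicate 1 or either KD library. GNLY, of NK cells, stood at 88 and 85.2 CPM in KD+E, 68.1 and 76.3 CPM in KD and 92.2 and 91.4 CPM in the control cells. The part of these markers in the values of HLA and ligand genes was not tested.

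Several other members of the ETS family were themselves called, as were 59.6% of all genes. Besides ELK3 and ETV7, ETV5 stood at 73.2 and 68.8 CPM in KD+E, at 6.04 and 5 CPM in KD and at 98.1 and 96.8 CPM in the control cells. ELF1 stood at 145 and 131.3 CPM against 28.9 and 31.7 CPM. ELF2, its close relative, was lower, at 23.6 and 24.4 CPM against 57.2 and 62.5 CPM. GABPA, the ETS factor of many mitochondrial and ribosomal promoters, did not pass, at 14 and 14.8 CPM against 22.4 and 15.9 CPM. Of the 16 tested members other than the ternary complex factors, 6 were higher and 7 lower (37.5% and 43.75%). The shares over all genes were 29.6% higher and 30.0% lower. Of the ternary complex partners, ELK1 was higher by 0.31 ± 0.11 (adjusted p = 0.0167), a call lost in DESeq2, with no filter and without any one of the 4 plasmid libraries. ELK4 did not pass, and SRF was lower, at 91.2 and 83.8 CPM against 139.5 and 166.5 CPM. Immediate early genes, the classic targets of these factors, were lower in 15 of 34 (44.1%) and higher in 6 (17.65%). EGR1 stood at 28.1 and 22.8 CPM against 113.7 and 98.6 CPM (log2 difference -2.04 ± 0.12), with 41.2 and 37.9 CPM in the control cells. ATF3 went the other way, at 331.4 and 333.8 CPM against 112.1 and 120.4 CPM.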

How the data were processed

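Deposited values were raw, unscaled counts for each gene symbol in each library. The authors used Bowtie2, edgeR and the hg19 genome, per the submitters' processing notes. How reads were counted, and on which annotation, is not given in the sources used here. Each deposited file has 25737 lines and 24462 distinct symbols, and lines sharing a symbol were summed. Groups were taken by column name, with 2 libraries each.

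The main test was edgeR 4.0.16 (R 4.3.3): filterByExpr left 15386 genes, TMM scaled the libraries, and a robust quasi-likelihood model used all 6 libraries, so that the control cells add to the estimate of spread (3 residual degrees of freedom, common biological coefficient of variation 0.0645). Tests were two-sided, with Benjamini-Hochberg adjustment across the 15386 genes. CPM are on TMM-scaled libraries and are listed as replicate 1, then 2. Errors after ± are SE from the fit. The fit was tested on simulated data. In these libraries 3 counts, the most that an observed 0 leaves possible at 95%, equal 0.329 to 0.614 CPM. Such floors and the counting intervals cover counting error only.

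Promoters came from RefSeq (GRCh38.p14) by symbol. Lists and motifs are described by counts, with no set test. Named genes were ELK3; the 12 largest log2 differences and the 8 largest CPM differences each way among called genes of at least 20 CPM whose groups do not overlap and whose symbol is on 1 line, without LOC names; the 5 members of each list with the smallest p, or fewer; any member of the lists of fission, fusion, mitochondrial DNA, NK ligands of activating receptors, HLA class I, ternary complex factors and G1; and the most abundant members of marker lists. Not every gene so chosen is printed, and some are not reported here. HIST1H4C, ZSCAN4 and LEUTX fall outside and were chosen after their values were seen. Members, lists and motifs were chosen with earlier results of these data known. Alternatives were DESeq2 1.42.0, its size factors in edgeR, limma-voom (limma 3.58.1), library totals, 2 other filters, the 4 plasmid libraries alone, a replicate block, leaving out symbols on several lines, and leaving out each library. The other motif letters and the count past 8-fold were chosen after seeing the data. Motifs and plots used Python 3.11.15 with pandas 2.3.3, numpy 2.4.6, scipy 1.17.1 and matplotlib 3.10.9.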

Additional observations from a re-analysis of the deposited data

How the results depend on the processing

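Over 15 alternatives no named gene that was called changed its direction. The median log2 difference of all genes, 0.02, was -0.0065 with library totals and -0.0011 without KD+E replicate 1. With a filter of 10 CPM, more genes were called higher (3912) than lower (3774). The number of genes called higher ran from 3511 (DESeq2) to 4656, and lower from 3682 (DESeq2) to 5029 (no filter). With a filter of 10 CPM in 2 libraries, 1160 genes were higher by at least 2-fold, 100 rose and 1 fell by 8-fold or more, and the ETS motif was in 26.38% of promoters of genes lower by at least 2-fold. With no filter, 655 rose and 28 fell by 8-fold or more, and the median of all genes moved to 0.11. Leaving out 1 library at a time gave 8 to 32 genes lower by at least 8-fold. Of 317 called genes that the naming rule allows, 284 kept the call in every alternative that tested them. The cause of these moves was not tested, beyond the number of genes each filter leaves.

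With the replicate number as a block, 4472 genes were higher and 4579 lower, and 1872 and 1596 by at least 2-fold. Same-numbered KD+E and KD libraries did not deviate together (r = -0.00066), so the numbers are not taken to pair the libraries. Genes under about 1 CPM rest on few counts, and their folds are imprecise.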
